A study of Mus musculus with 7 samples.

Results

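The genes described were 35 subunits and receptors for glutamate and GABA, taken by symbol from the 27998 genes of the deposited count table. They comprised 4 AMPA, 5 kainate, 7 NMDA and 1 delta subunit gene, 7 metabotropic glutamate (mGlu) receptor genes, 9 GABA-A subunit genes and 2 GABA-B subunit genes. They were followed in single cells of the oligodendrocyte lineage (OLCs) sorted at P90 from the brains of mice on a C57BL/6-B6CBA background. Control dOLCs were TdTom+ cells and control vOLCs GFP+ cells, both from Emx1-Cre:Sox10-GFP-TdTom animals. Ectopic vOLCs were GFP+ cells from animals that carried the Sox10-GFP-DTA transgene besides Emx1-Cre and Sox10-GFP-tdTom. All 3 groups thus carried Emx1-Cre, which is active in progenitors of the dorsal forebrain, and a Sox10 reporter that is red after recombination and green without it. Diphtheria toxin A was expressed in recombined Sox10+ cells of the ablated animals only, so that the GFP+ cells taken from them were ventrally derived cells in a region where dorsally derived ones had been depleted, in part per the study. The labels place the tissue in motor and cingulate cortex. The paper instead names the neocortex for the P90 cells, with a methods line on the corpus callosum. It gives motor and cingulate cortex for nuclei of newborn mice. Each group was 1 library, pooled from 4 control or 2 ablated mice of both sexes that the files do not tell apart. Control dOLCs and control vOLCs came from the same 4 mice, and every comparison of ectopic vOLCs with a control is also one of different mice.

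AMPA, kainate and NMDA receptors are glutamate-gated cation channels built from 4 subunits, whereas mGlu receptors signal through G proteins. GABA-A receptors are chloride channels, and GABA-B receptors are G protein-coupled heteromers of GABBR1 and GABBR2. Oligodendrocyte precursor cells (OPCs) are known to receive synaptic input from glutamatergic and GABAergic axons, and this input is known to be lost as they differentiate into myelinating oligodendrocytes (OLs).

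Gria2, with the most UMIs among the members called higher in OPCs than in OLs, and Grm3, called lower, both had a promoter in the RefSeq table for GRCm38.p6, which held 25 of the 35 members. The windows run from 250 bases before to 50 bases after the transcription start, on the minus strand in both cases. They are chr3:80802786-80803085 for Gria2 and chr5:9725303-9725602 for Grm3. In GENCODE for GRCm38, Gria2 is a protein-coding gene at chr3:80681450-80802835 and Grm3 one at chr5:9485541-9725170, which puts the RefSeq start of Grm3 upstream of the GENCODE one. The sequences, 5′ to 3′, are shown because the first gene was higher in OPCs and the second in OLs. Capitals mark CANNTG (E-box) and GGGCGG (GC box) on either strand, where matches of the same motif may overlap.
Gria2: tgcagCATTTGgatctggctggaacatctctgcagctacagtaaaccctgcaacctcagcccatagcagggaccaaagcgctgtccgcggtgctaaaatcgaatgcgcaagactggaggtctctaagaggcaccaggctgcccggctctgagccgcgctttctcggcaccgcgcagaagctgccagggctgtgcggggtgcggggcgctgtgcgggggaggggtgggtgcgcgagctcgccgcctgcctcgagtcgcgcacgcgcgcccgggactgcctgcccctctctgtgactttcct
Grm3: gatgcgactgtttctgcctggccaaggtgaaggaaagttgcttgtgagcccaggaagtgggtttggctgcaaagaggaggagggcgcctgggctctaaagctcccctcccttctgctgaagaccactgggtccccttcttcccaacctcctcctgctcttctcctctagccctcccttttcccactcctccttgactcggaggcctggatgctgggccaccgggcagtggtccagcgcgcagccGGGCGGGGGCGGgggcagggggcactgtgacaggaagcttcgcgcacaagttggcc
The Gria2 window held 1 E-box and 0 GC boxes, with 26 CG pairs and a GC content of 65.7%. The Grm3 window held 0 E-boxes and 2 GC boxes, with 11 CG pairs and 63.7% GC. Of 32544 promoter windows of the same length that were searched, 72.3% held an E-box and 35.9% a GC box, and the median window had 7 CG pairs and 53.0% GC. Neither window held ACAAAG, a SOX-type motif found in 18.7% of windows, or TATAAA, found in 13.6%. These matches describe letters in a window and do not show a site in use.

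The authors deposited raw counts of unique molecular identifiers (UMIs) and their annotation of 9291 kept cells in 11 clusters. The libraries held 5804, 925 and 2562 cells and 23078181, 4846391 and 14293675 UMIs in control dOLCs, control vOLCs and ectopic vOLCs, respectively. Values below list the libraries in this order. For each library and population, the UMIs of its cells were added up and scaled to a total of 1000000 (CPM). Non-cycling OPCs numbered 853, 121 and 330 cells, and MOL5/6, the joined mature OL clusters MOL5/6a to MOL5/6d, 3777, 561 and 1842 cells. Intervals are exact 95% intervals of the counting error and hold no spread between mice. With 1 library per group, no test between groups was possible. A gene is called here where it had at least 50 UMIs in the compared libraries or populations together and its CPM differed 2-fold or more (a log2 ratio of 1 or more in size). In total, 39 cell barcodes occurred in more than 1 library, 4 of them in the same cluster.

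The cluster names were checked against marker genes. Pdgfra, a receptor of OPCs, was at 1450, 2174 and 1363 CPM in OPCs and at 16.0, 10.3 and 5.39 CPM in MOL5/6. Mag, a gene of the myelin sheath, was at 806, 276 and 301 CPM in OPCs and at 4449, 4257 and 4770 CPM in MOL5/6. The summed level of 8 neuronal markers in OPCs was 1138, 1315 and 1219 CPM, of which Meg3 gave 1026, 1186 and 1114 CPM. Summed levels of 5 microglial markers reached at most 2.53 CPM in OPCs and 1.68 CPM in MOL5/6. The cluster annotated MFOLb went against its name in part. Its 106, 8 and 43 cells held the astrocyte gap junction gene Gja1 at 254, 406 and 195 CPM, against at most 1.14 CPM in OPCs and 2.76 CPM in MOL5/6, and the water channel gene Aqp4 at 140, 174 and 123 CPM. Levels of receptor genes in this cluster are therefore given apart.

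Of the 35 genes, 23 had at least 50 UMIs over all kept cells and 12 had fewer. Grm6 had 0 UMIs, which allows up to 3 in all. Grm2 and Grin2a had 1 UMI each, and Grin2d, Grin3b and Gabra5 had 2 each. Grm8 had 20 UMIs, Grin2b 22, Grm4 29, Gabrd 47, Gabrb2 48 and Gabra4 49. The members with the most UMIs over all cells were Gabbr1 with 10553, Gria2 with 6210 and Grm3 with 3419. Summed over all 35 genes, the level in OPCs was 2594, 3575 and 2218 CPM, and in MOL5/6 it was 468, 467 and 449 CPM. Clusters were made from the genes of these same cells, so that differences between populations are a description.

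**Figure D1:**
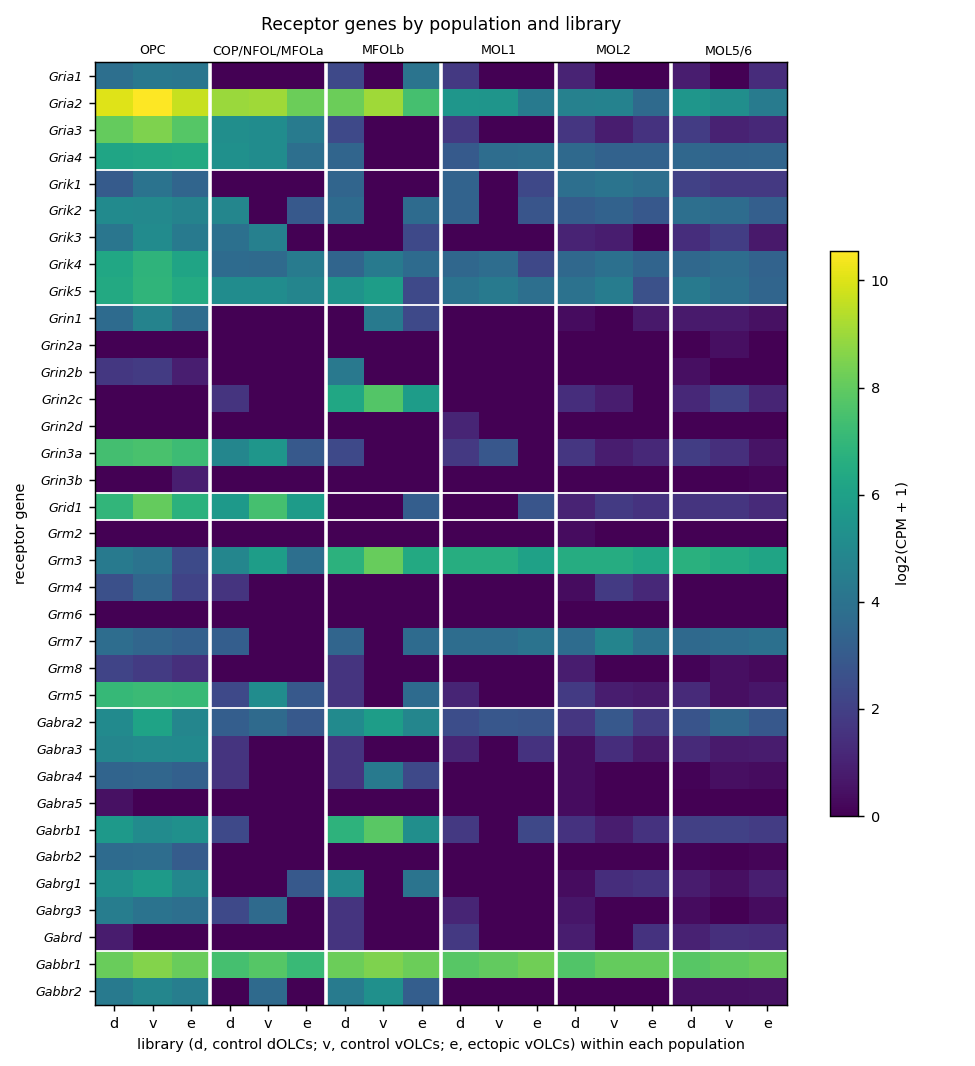
Colour gives log2(CPM + 1) of each of the 35 receptor genes (rows) in 6 populations, each split by library (columns: d, control dOLCs, v, control vOLCs, e, ectopic vOLCs). Most detected genes are brightest in OPCs, Gabbr1 is bright throughout, and Grm3 is brighter in OLs than in OPCs.

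AMPA receptor genes were higher in OPCs than in OLs, by a large factor for Gria2 and Gria3 and a smaller one for Gria4. Gria2, whose edited product keeps AMPA receptors nearly impermeable to calcium, was at 1063, 1500 and 801 CPM in OPCs and at 45.7, 36.0 and 19.8 CPM in MOL5/6. The log2 ratio of OPCs over MOL5/6 was 4.54 (95% interval 4.42 to 4.66), 5.38 (5.08 to 5.70) and 5.34 (5.12 to 5.56). The cluster annotated COP/NFOL/MFOLa, which joins committed, newly formed and myelin-forming cells, lay between, at 504, 528 and 288 CPM. It held 76, 13 and 22 cells. Gria3 was at 266, 362 and 220 CPM in OPCs and at 2.70, 1.03 and 1.32 CPM in MOL5/6. Gria4 was at 72.0, 78.5 and 83.2 CPM in OPCs and at 10.4, 9.59 and 9.84 CPM in MOL5/6. Gria1 was rare, with 35, 7 and 20 UMIs in OPCs and 12, 0 and 16 in MOL5/6.

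Droplets can hold free RNA of other cells, so levels in MOL5/6 were set against those of OPC markers that OLs should lack. Pdgfra in MOL5/6 was at 1.10% (0.962% to 1.26%), 0.473% (0.317% to 0.680%) and 0.396% (0.298% to 0.515%) of its OPC level, and Ptprz1 at 1.11%, 0.587% and 0.562%. Gria3 was at 1.01% (0.718% to 1.39%), 0.284% (0.0578% to 0.846%) and 0.601% (0.324% to 1.03%), and Grm5 at 1.07%, 0.237% and 0.413%, with intervals that overlapped those of Pdgfra in each library. Neither gene thus stood above the marker level in MOL5/6 at this depth, and the part of free RNA in these values was not tested. Gria2 was above the markers in each library, at 4.30% (3.95% to 4.68%), 2.40% (1.93% to 2.96%) and 2.47% (2.11% to 2.87%). Gria4 stood at 14.4% (11.6% to 17.9%), 12.2% (7.06% to 21.0%) and 11.8% (8.90% to 15.7%) of its OPC level, with intervals that overlapped.

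**Figure D2:**
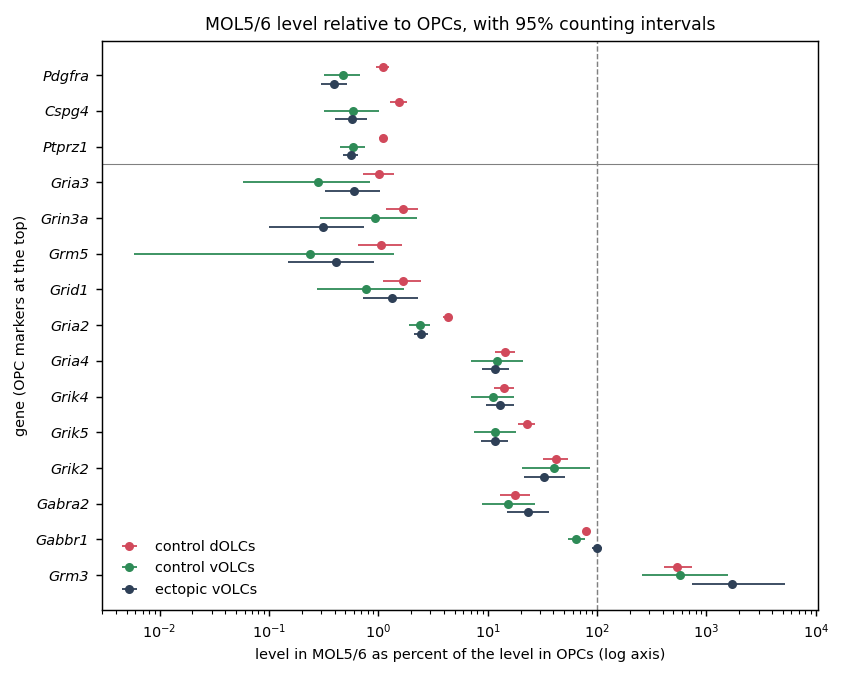
Points give the CPM in MOL5/6 as a percent of the CPM in OPCs of the same library (log axis) for 3 OPC markers and 12 receptor genes, with 95% counting intervals, and the dashed line marks equal levels. Gria3, Grin3a, Grm5 and Grid1 sit near the OPC markers, Gria4 and the kainate genes above them, Gabbr1 at 64.3% to 99.8%, and Grm3 at 545% or more.

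Kainate receptor genes were held by OPCs and, at lower levels, by OLs. Grik4 and Grik5 encode the high-affinity subunits, which form channels only together with a subunit of the Grik1 to Grik3 group. Grik4 was at 77.3, 114 and 71.5 CPM in OPCs and at 11.0, 12.7 and 9.27 CPM in MOL5/6. Grik5 was at 84.2, 119 and 85.7 CPM in OPCs and at 19.3, 14.0 and 9.93 CPM in MOL5/6, or 22.9%, 11.8% and 11.6% of the OPC level. Grik2 kept 41.9% (32.3% to 54.8%), 40.6% (20.6% to 85.6%) and 32.6% (21.3% to 51.2%) of its OPC level. Grik3 was at 16.8, 32.9 and 19.1 CPM in OPCs, with 24, 8 and 7 UMIs in MOL5/6. All kainate genes with at least 50 UMIs were thus at a larger percent of their OPC level in MOL5/6 than the OPC markers.

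Grik1 differed among OLs. In MOL2, a mature OL population marked here by Klk6 at 426, 1395 and 725 CPM against 21.0, 56.2 and 25.2 CPM in MOL5/6, the 50 UMIs of control dOLCs gave 13.6 CPM against 3.10 CPM in MOL5/6. The log2 ratio was 2.13 (1.52 to 2.74). In MOL2 of control vOLCs and ectopic vOLCs it was at 15.5 CPM (9.33 to 24.2) and 13.5 CPM (8.37 to 20.7), against 2.40 and 2.36 CPM in MOL5/6, with too few UMIs for a ratio under the filter. By subcluster, the level was 14.4, 15.3 and 21.8 CPM in MOL2a and 12.6, 19.1 and 6.94 CPM in MOL2b, the last 3 values from 21, 1 and 6 UMIs. Gria2 in control dOLCs ran the other way, at 23.6 CPM in MOL2 and 45.7 CPM in MOL5/6, a log2 ratio of -0.95 (-1.29 to -0.63). For Grm3 and Gabbr1 the log2 ratios of MOL2 over MOL5/6 lay between -0.18 and 0.08 in all 3 libraries.

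Among NMDA receptor genes, Grin3a was the one with enough UMIs in OPCs for a comparison with OLs. It encodes a glycine-binding subunit that lowers calcium permeability. Grin3a was at 166, 185 and 151 CPM in OPCs, and at 1.67%, 0.926% and 0.312% of that in MOL5/6. Grin1, the subunit that all conventional NMDA receptors require, had 31, 10 and 15 UMIs in OPCs and 10, 2 and 4 in MOL5/6, or 11.8, 25.3 and 12.5 CPM and 0.674, 0.685 and 0.378 CPM. Grin2b had 6, 1 and 1 UMIs in OPCs, and Grin2a, Grin2c and Grin2d had 0 in all 3 libraries. In MOL5/6, Grin2c had 20, 9 and 12 UMIs, too few to tell OPCs and MOL5/6 apart. UMIs are counted at transcript ends, so levels of different genes were not ranked. Grid1, a delta subunit that acts at synapses without known gating by glutamate, was at 121, 269 and 106 CPM in OPCs and at 2.02, 2.05 and 1.42 CPM in MOL5/6. In the mixed cluster COP/NFOL/MFOLa, Grid1 was at 50.2, 172 and 53.6 CPM, from 25, 15 and 8 UMIs.

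The mGlu receptors divided by cell type. Grm5, which couples to phospholipase C, was at 132, 144 and 137 CPM in OPCs, where it gave 76.8%, 79.2% and 88.7% of mGlu UMIs, and at 1.42, 0.342 and 0.567 CPM in MOL5/6, where it gave 1.21%, 0.341% and 0.662%. Grm3, which inhibits adenylyl cyclase, was at 19.0, 15.2 and 4.16 CPM in OPCs (50, 6 and 5 UMIs) and at 104, 87.3 and 71.3 CPM in MOL5/6 (1539, 255 and 754 UMIs). Its log2 ratio of OPCs over MOL5/6 was -2.45 (-2.88 to -2.04), -2.52 (-3.98 to -1.38) and -4.10 (-5.73 to -2.87), so that OLs had the higher level in each library. Myelin genes give a measure of OL RNA in the OPC cluster. The OPC level of Grm3 was 18.4%, 17.4% and 5.83% of that in MOL5/6, and that of the 5 myelin genes Mag, Mbp, Mobp, Mog and Cnp ran from 18.1% (Mag) to 30.6% (Mobp), from 6.49% (Mag) to 17.7% (Mobp) and from 6.31% (Mag) to 16.1% (Mobp). Grm3 in OPCs was within this range in both controls and below it in ectopic vOLCs, so that it did not stand above OL RNA in OPCs of any library. Grm7 was at 12.6, 10.1 and 8.32 CPM in OPCs and 11.3, 12.3 and 13.7 CPM in MOL5/6, and its log2 ratios in the 2 libraries past the filter, 0.15 (-0.43 to 0.70) in control dOLCs and -0.72 (-1.81 to 0.20) in ectopic vOLCs, had intervals that included 0. In ectopic vOLCs this depended on the scaling, with Grm7 at -1.62 (-2.71 to -0.70) with TMM factors, on 10 UMIs in OPCs. Grm4, with 13, 4 and 4 UMIs in OPCs, had 0 in MOL5/6 of all 3 libraries.

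GABA-A subunit genes were found in OPCs as alpha, beta and gamma subunits. Among alpha subunits, Gabra2 was at 32.0, 68.4 and 27.4 CPM in OPCs and Gabra3 at 27.8, 30.4 and 30.8 CPM. The beta subunit Gabrb1 was at 49.5, 32.9 and 38.3 CPM. The gamma subunit Gabrg1 was at 38.1, 53.2 and 28.3 CPM, and Gabrg3 at 21.3, 15.2 and 13.3 CPM. In MOL5/6, Gabrg1 had 11, 1 and 9 UMIs and Gabrg3 4, 0 and 3. Gabra2 kept 17.7%, 15.5% and 23.4% of its OPC level there, more than the OPC markers. Gabrd, the delta subunit of extrasynaptic receptors, had 2, 0 and 0 UMIs in OPCs and 15, 5 and 16 in MOL5/6, or 0.762 against 1.01 CPM in control dOLCs, too few to tell the populations apart (log2 ratio -0.41, -3.58 to 1.70).

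The GABA-B genes parted ways. Gabbr1, which binds the ligand, was at 280, 390 and 284 CPM in OPCs and at 224, 251 and 284 CPM in MOL5/6. Gabbr2, which carries the complex to the cell surface and couples it to G proteins, was at 19.0, 27.9 and 21.6 CPM in OPCs and had 5, 1 and 4 UMIs in MOL5/6, or 1.77%, 1.23% and 1.75% of its OPC level. Gabbr1 was also at 204, 265 and 265 CPM in MOL2 and at 223, 258 and 305 CPM in MOL1. Its log2 ratio of OPCs over MOL5/6 was 0.32, 0.64 and 0.00, and with edgeR TMM factors it turned to -0.34 in control dOLCs and -0.07 in control vOLCs and was -0.89 in ectopic vOLCs.

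In control dOLCs, 17 of the 20 members past the filter were 2-fold or more higher in OPCs than in MOL5/6 and 1, Grm3, was lower. Of all 10583 genes tested, 29.8% were that much higher and 8.01% lower. In control vOLCs the counts were 9 and 1 of 11, with 25.2% and 14.5% of all genes, and in ectopic vOLCs 11 and 1 of 14, with 35.7% and 9.06%. The median log2 ratio of the members was 3.70, 3.17 and 3.09, beside 0.49, 0.29 and 0.65 over all genes. Of the 11 members past the filter in all 3 libraries, 9 were 2-fold or more higher in OPCs in each. TMM and median-of-ratios factors moved the median of all genes by between -0.66 and -0.91 in these comparisons. With TMM factors, Grik1 (0.56) and Grik2 (0.59) in control dOLCs and Grik2 (0.72) in ectopic vOLCs fell short of 2-fold. Grm7 in ectopic vOLCs, at -1.62, passed it in the lower direction.

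In the cluster annotated MFOLb, Grin2c was at 78.1, 213 and 55.7 CPM, from 39, 11 and 14 UMIs, against 0 UMIs in OPCs of all 3 libraries. Gabrb1 was at 112, 232 and 35.8 CPM in the same cells. The astrocytic GABA transporter gene Slc6a11 was at 154, 174 and 135 CPM and the glutamate transporter gene Slc1a2 at 1217, 1412 and 978 CPM there. The part of the astrocyte markers given above in these receptor levels was not tested.

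In OPCs, ectopic vOLCs had lower levels of Gria2 and Gria3 than both controls. Gria2 was at 801 CPM in ectopic OPCs, against 1063 CPM in control dOLCs and 1500 CPM in control vOLCs. Against control dOLCs this gave a log2 ratio of -0.41 (-0.52 to -0.30), and against control vOLCs one of -0.90 (-1.05 to -0.75). Gria3 differed by -0.27 (-0.48 to -0.06) and -0.72 (-1.02 to -0.41). The other AMPA gene past the filter in both comparisons, Gria4, had intervals that included 0 in each (0.21, -0.16 to 0.57, and 0.08, -0.51 to 0.71). Of 12 members past the filter in both comparisons, Gria2 and Gria3 were those below 0 against both controls with intervals that left out 0, and 0 were above. Over all genes these shares were 3.46% and 8.60%. The level of control dOLCs lay between the other libraries for both genes, so that the controls differed from each other as well.

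Against control dOLCs, Grm3 was the member with the largest difference in ectopic OPCs, at 4.16 against 19.0 CPM (5 and 50 UMIs), a log2 ratio of -2.20 (-3.88 to -0.88). It was the only one of 19 members called lower, with 2.57% of all genes lower, and 0 members were called higher, with 0.570% of all genes higher. Its OPC level did not exceed the range of OL RNA in either library, as described above, and Mag moved with it, at 301 against 806 CPM in the same OPCs (-1.42, -1.59 to -1.26). The part of OL RNA in this difference was not tested. With cells thinned to 1000 UMIs, ectopic OPCs had 0 UMIs of Grm3 and the bound from 3 counts was -0.75, which is no longer 2-fold. After Grm3 came Gabrg3 at -0.68 (-1.58 to 0.14), Gabrg1 at -0.43 (-1.04 to 0.14) and then Gria2, and the intervals of Gabrg3 and Gabrg1 included 0. Gabbr1 and Grik5 both stood at 0.03, Grm5 at 0.05 and Grin3a at -0.13, with intervals that included 0. The median over the 19 members was -0.13, beside 0.04 over all genes.

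Against control vOLCs, Grid1 and Gabra2 showed the largest differences in ectopic OPCs. Grid1 was at 106 against 269 CPM, a log2 ratio of -1.35 (-1.73 to -0.96), and Gabra2 at 27.4 against 68.4 CPM, or -1.32 (-2.10 to -0.53). These were the 2 members of 12 called lower, with 1.83% of all genes lower, and 0 were called higher, with 5.31% of all genes higher. Gabrg1 differed by -0.91 (-1.74 to -0.05), Grik4 by -0.67 (-1.21 to -0.12) and Gabbr1 by -0.46 (-0.73 to -0.17). Grik4 was at 0.03 with cells thinned to 1000 UMIs. The interval of Gabrg1 included 0 with TMM factors (-0.84, -1.67 to 0.01). Grm5, Gria4, Gabrb1, Grin3a and Grik5 had intervals that included 0. The members' median was -0.57, beside 0.04 over all genes.

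Grid1 and Gabra2 were also the members that set the controls apart. In control vOLCs against control dOLCs, Grid1 (1.15, 0.82 to 1.47) and Gabra2 (1.10, 0.41 to 1.74) were the 2 of 18 members called higher in OPCs, with 2.00% of all genes higher, and 0 were called lower, with 4.19% of all genes lower. Gria2 differed by 0.50 (0.37 to 0.62), Gabbr1 by 0.48 (0.22 to 0.73), and Gria3 by 0.45 (0.18 to 0.71). Grik5 (0.50, 0.01 to 0.96) and Grik4 (0.56, 0.06 to 1.03) did not hold under the other scalings: with TMM factors they were 0.43 (-0.06 to 0.89) and 0.49 (-0.01 to 0.96), and Grik4 was -0.24 with thinned cells. Both comparisons share the 121 OPCs of control vOLCs, and a high level in that library lowers the one ratio as it raises the other. OPC markers were also high in it: Pdgfra differed by 0.58 (0.48 to 0.69), Cspg4 by 0.44 and Ptprz1 by 0.29 between the controls. Their part in the receptor differences was not tested.

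**Figure D3:**
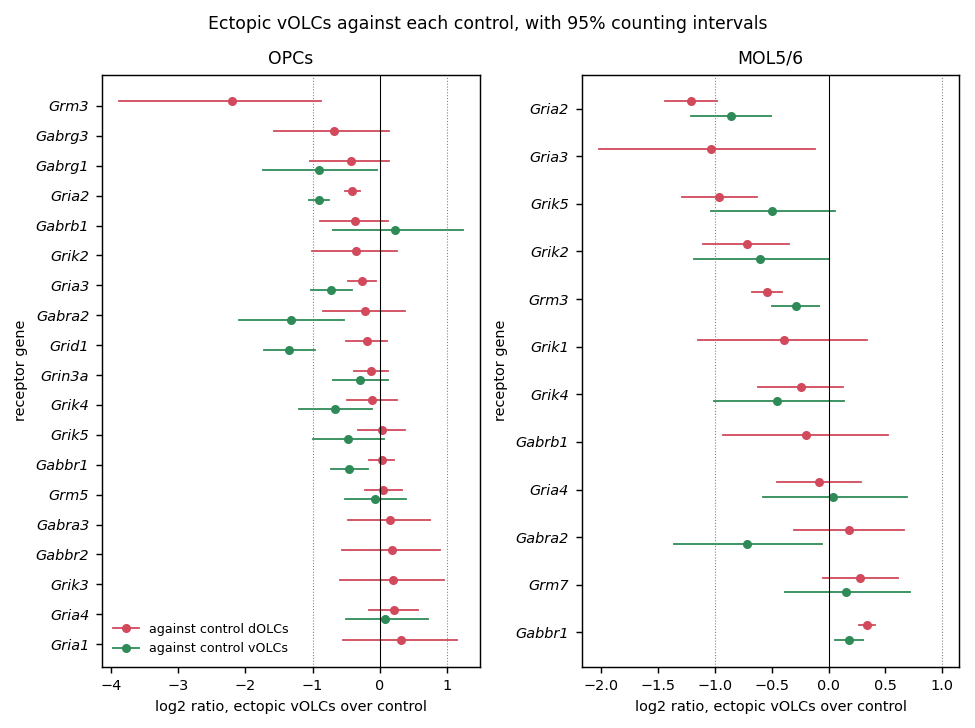
Points give the log2 ratio of CPM in ectopic vOLCs over control dOLCs (red) or control vOLCs (green) for each receptor gene past the filter, with 95% counting intervals, in OPCs (left) and MOL5/6 (right), and dotted lines mark 2-fold. In OPCs the intervals of Gria2 and Gria3 lie below 0 in both colours, and in MOL5/6 those of Gria2 and Grm3 lie below 0 and that of Gabbr1 above.

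In MOL5/6, ectopic vOLCs had lower levels of Gria2 and Grm3 and a higher level of Gabbr1 than both controls. Gria2 was at 19.8 CPM against 45.7 in control dOLCs and 36.0 in control vOLCs, with log2 ratios of -1.21 (-1.44 to -0.98) and -0.86 (-1.21 to -0.51). Grm3 differed by -0.54 (-0.67 to -0.41) and -0.29 (-0.50 to -0.08). Gabbr1 differed by 0.34 (0.27 to 0.41) and 0.18 (0.06 to 0.30). Of 9 members past the filter in both comparisons, these were the 2 lower and the 1 higher with intervals that left out 0, and over all genes the shares were 19.6% and 8.08%. The member counts were thus near the shares of all genes and do not set these receptor genes apart. TMM and median-of-ratios factors moved the median of all genes by 0.17 and 0.19 against control dOLCs and by 0.15 and 0.16 against control vOLCs. Under both factors the intervals of Gria2 and Gabbr1 still left out 0 against each control. That of Grm3 did so against control dOLCs but included 0 against control vOLCs (-0.15, -0.35 to 0.07, with TMM), where it was 0.15 with thinned cells.

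Against control dOLCs, 2 of 12 members were called lower, Gria2 and Gria3 (-1.03, -2.02 to -0.12), with 5.09% of all genes lower, and 0 were called higher, with 0.411% of all genes higher. Gria3 in MOL5/6 did not stand above the OPC markers, as described above, and with TMM factors only Gria2 was called. Grik5 differed by -0.96 (-1.29 to -0.63) and Grik2 by -0.72 (-1.10 to -0.35), while Gria4, Grik4, Grik1, Grm7, Gabra2 and Gabrb1 had intervals that included 0. With TMM factors the interval of Grm7 (0.45, 0.12 to 0.78) left out 0 and that of Gria3 (-0.86, -1.85 to 0.05) included it. The members' median was -0.32, beside -0.15 over all genes. Against control vOLCs, 0 of 9 members were called lower and 0 higher, with 4.28% and 0.635% of all genes. Gabra2 was at -0.72 (-1.36 to -0.06) there, with an interval that included 0 with TMM factors (-0.58, -1.21 to 0.09), and the median was -0.45, beside -0.09 over all genes. Between the controls, 0 of 11 members were called higher and 0 lower, with 1.37% and 1.60% of all genes. The largest of these differences was that of Gabra2, at 10.6 CPM in control vOLCs and 5.66 CPM in control dOLCs, a log2 ratio of 0.91 (0.26 to 1.52).

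OPC markers moved with Gria2 in MOL5/6. Pdgfra was at 16.0, 10.3 and 5.39 CPM, a log2 ratio of -1.57 (-2.01 to -1.14) for ectopic vOLCs against control dOLCs and of -0.93 (-1.59 to -0.24) against control vOLCs. Ptprz1 was at 33.8, 21.9 and 16.6 CPM. The part of OPC RNA in the difference was not tested. With thinned cells the Gria2 ratio was -1.51 against control vOLCs.

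The 3 libraries filled MOL5/6 with different subclusters. In control dOLCs 51.5% of MOL5/6 cells were in MOL5/6b and 8.82% in MOL5/6a, and in ectopic vOLCs 2.28% and 48.9%, with a further 45.4% in MOL5/6d. In control vOLCs 42.2% were in MOL5/6a and 42.1% in MOL5/6b. Ratios were therefore also taken within each subcluster. Against control dOLCs, Gria2 was lower in ectopic vOLCs in 4 of 4 subclusters, with -0.75 (-1.29 to -0.19) in MOL5/6a and -0.94 (-1.32 to -0.56) in MOL5/6d, and intervals in the other two included 0. Against control vOLCs it was -0.69 (-1.24 to -0.12) in MOL5/6a but 0.33 (-1.07 to 2.23) in MOL5/6d, where control vOLCs had 4 UMIs.

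Within subclusters the difference in Grm3 was smaller. Against control dOLCs it was -0.06 (-0.39 to 0.28) in MOL5/6a, -0.04 (-0.85 to 0.67) in MOL5/6b, -0.44 (-1.07 to 0.13) in MOL5/6c and -0.26 (-0.48 to -0.04) in MOL5/6d. Against control vOLCs it was above 0 in 3 of 4 subclusters, with intervals that included 0, and it was 0.15 over all MOL5/6 with thinned cells. In control dOLCs Grm3 was at 118 CPM in MOL5/6b and 76.4 CPM in MOL5/6a. Gabbr1 was higher in ectopic vOLCs in 4 of 4 subclusters against each control, by 0.30 (0.17 to 0.42) in MOL5/6d and 0.21 (0.03 to 0.38) in MOL5/6a against control dOLCs and by 0.43 (0.03 to 0.84) in MOL5/6d against control vOLCs, while the intervals of the other ratios included 0. The kainate differences did not keep their sign: Grik5 was 0.76 (-0.24 to 1.64) and Grik2 0.56 (-0.81 to 1.69) in MOL5/6c, and Grik2 was 0.02 in MOL5/6b.

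**Figure D4:**
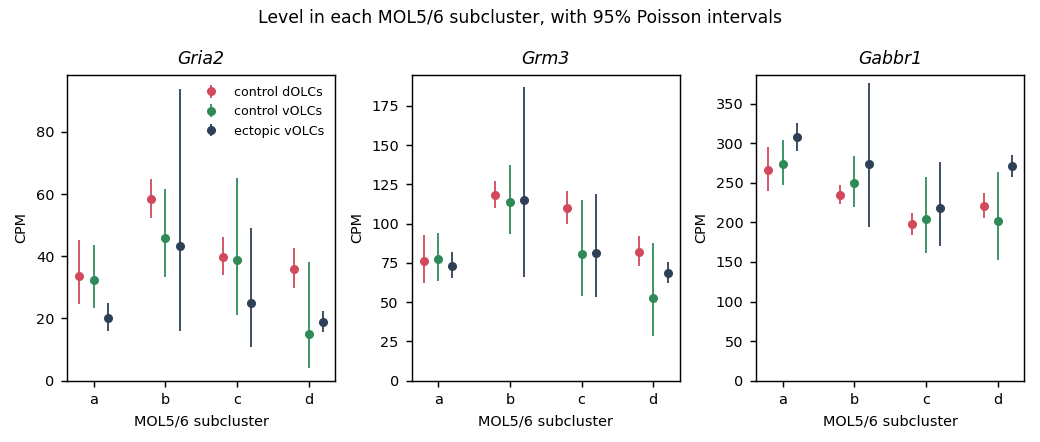
Points give the CPM of Gria2, Grm3 and Gabbr1 in each MOL5/6 subcluster and library, with exact 95% Poisson intervals. Ectopic vOLCs lie below control dOLCs for Gria2 in each subcluster and above both controls for Gabbr1, whereas Grm3 differs more between subclusters b and a than between libraries of subcluster a.

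Gria4 held a larger share of the AMPA family in OLs than in OPCs, and a larger one in ectopic vOLCs than in control dOLCs in both. The level of Gria4 itself was lower in OLs, as given above, and in MOL5/6 it differed little between ectopic vOLCs and control dOLCs (-0.08, -0.45 to 0.29), while Gria2 and Gria3 were lower by more in each case. Gria2 gave 75.2% (73.7% to 76.6%), 76.6% (73.4% to 79.5%) and 71.4% (68.9% to 73.8%) of AMPA UMIs in OPCs, and Gria3 gave 18.8%, 18.5% and 19.7%. Gria4 gave 5.09% (4.41% to 5.85%), 4.01% (2.74% to 5.64%) and 7.42% (6.08% to 8.95%) in OPCs, and 17.4%, 20.6% (14.1% to 28.4%) and 30.3% (25.5% to 35.5%) in MOL5/6. In MOL5/6 of ectopic vOLCs Gria2 gave 60.9% (55.5% to 66.1%), below 76.7% (73.8% to 79.4%) in control dOLCs and 77.2% (69.2% to 84.0%) in control vOLCs, and these intervals did not overlap. In the kainate family, Grik2 gave 14.7%, 9.76% and 11.8% in OPCs and 27.7%, 27.9% and 26.8% in MOL5/6. In the GABA-A family, Gabra2 gave 16.7%, 30.7% and 17.8% in OPCs and 46.2%, 63.3% and 50% in MOL5/6, from 182, 49 and 136 UMIs of the family.

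**Figure D5:**
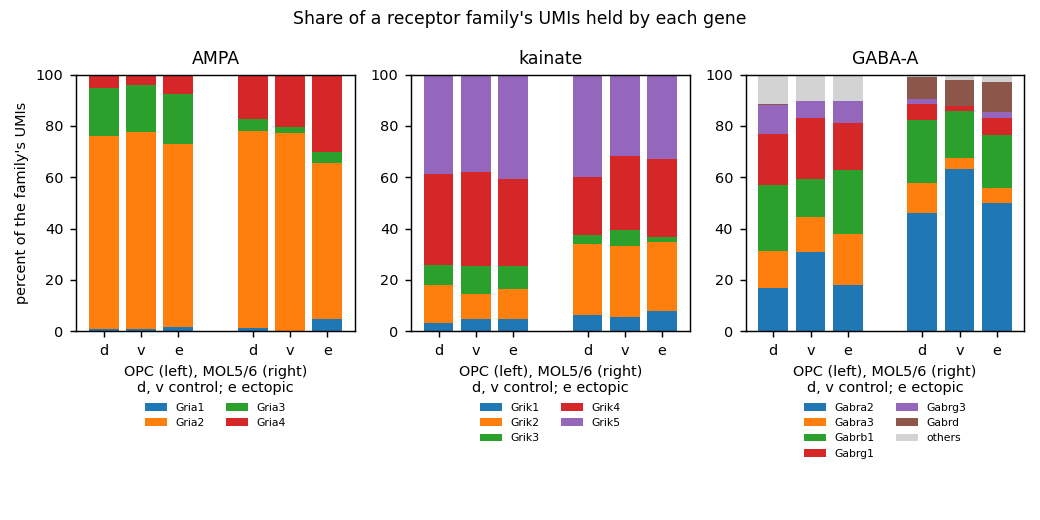
Stacked bars give the percent of a receptor family's UMIs that each gene holds in OPCs (left 3 bars) and MOL5/6 (right 3 bars) of control dOLCs (d), control vOLCs (v) and ectopic vOLCs (e), for AMPA, kainate and GABA-A genes. The share of Gria4 is larger in MOL5/6 than in OPCs in each library, and the share of Grik2 and Gabra2 likewise.

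Shares of cells with a UMI followed depth as well as level. Gria2 was seen in 93.2%, 95.9% and 93.6% of OPCs, and in 65.4%, 75.2% and 56.1% once each cell was thinned to 1000 UMIs. Median depths of OPCs were 2795, 3454 and 3421.5 UMIs, and those of MOL5/6 3491, 5069 and 5478.5. In MOL5/6, Gria2 was seen in 15.3%, 15.3% and 9.93% of cells, and in 4.63%, 4.28% and 1.63% of thinned cells. Pdgfra, which OLs should lack, was seen in 6.17%, 5.35% and 3.04% of MOL5/6 cells, and in 1.72%, 1.78% and 0.326% of thinned cells. Grm3 was seen in 32.6%, 37.4% and 32.1% of MOL5/6 cells and in 5.39%, 4.96% and 1.52% of OPCs. After thinning, 10.3%, 7.49% and 7.93% of MOL5/6 cells had one.

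Genes that serve these receptors were followed as lists totalling 46 genes. Of 12 AMPA auxiliary genes, 7 passed the filter between OPCs and MOL5/6 of control dOLCs, with 6 called higher (29.8% of all genes were) and 1, Cnih3, called lower in OPCs (8.01% of all genes), where it had 5 UMIs and an interval that reached 0 (-2.96 to 0.00). Gsg1l (27.8 against 0.270 CPM) and Shisa9 (48.0 against 0.606 CPM) had the largest differences. Both kainate auxiliary genes, Neto1 and Neto2, were called higher, with log2 ratios of 6.13 and 4.51. Of 13 glutamate scaffold genes, 9 were tested, with 4 called higher and 1, Dlg1, called lower. Homer2 (4.43) had the largest difference in this list, followed by Shank1 (2.60). The other libraries did not repeat this excess in OPCs. For the same list, control vOLCs had 0 of 4 tested genes called higher and 1 lower, and ectopic vOLCs 1 of 6 higher and 0 lower. Of 9 GABA scaffold and auxiliary genes, 6 were tested in control dOLCs and 4 called higher, led by the adhesion genes Nlgn3 (4.86) and Nlgn2 (2.99).

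The transporter list gave 5 of 6 genes tested and 5 called higher in OPCs of control dOLCs, with Slc1a1 (4.68) and Slc6a11 (3.84) the largest. Slc12a2, which loads cells with chloride and so sets the direction of GABA-A currents, was instead at 164 CPM in OPCs and 602 CPM in MOL5/6 of control dOLCs, a log2 ratio of -1.88 (-2.02 to -1.74). The RNA editing enzymes Adar and Adarb1 were both called higher in OPCs, at 1.54 and 3.63. Over the 46 genes, 32 were tested in control dOLCs, with 23 called higher and 3 lower, beside 29.8% and 8.01% of all genes. In control vOLCs 10 of 17 were called higher and 2 lower, beside 25.2% and 14.5% of all genes. In ectopic vOLCs 17 of 25 were called higher and 1 lower, beside 35.7% and 9.06%.

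Between libraries these lists gave few calls. In ectopic OPCs against control dOLCs, 0 of 31 genes were called higher and 1 lower, beside 0.570% and 2.57% of all genes. That gene was Slc12a2, at 69.9 against 164 CPM, a log2 ratio of -1.23 (-1.59 to -0.89). Control vOLCs, at 70.9 CPM, were low in it too (-1.21, -1.82 to -0.66), and there Nlgn3 was called higher, at 755 against 374 CPM (1.01, 0.82 to 1.20), with 29 list genes tested, beside 2.00% of all genes higher and 4.19% lower. Slc12a2 was higher in OLs, at 602 CPM in MOL5/6 of control dOLCs, and the OL marker Mag moved with it in OPCs, at 806, 276 and 301 CPM in control dOLCs, control vOLCs and ectopic vOLCs. The part of OL RNA in the difference was not tested. In ectopic OPCs against control vOLCs, 0 of 19 were called, beside 5.31% of all genes higher and 1.83% lower, and Nlgn3 (-0.82, -1.03 to -0.61) had the largest difference among those whose interval left out 0. In MOL5/6 against control dOLCs, 0 of 24 were called higher and 2 lower, beside 0.411% and 5.09% of all genes. They were Slc1a1 (-1.40, -2.12 to -0.74) and the AMPA auxiliary gene Cacng4 (-1.36, -1.88 to -0.87), which was also the 1 of 24 called lower in control vOLCs (-1.47, -2.50 to -0.59), where 1.60% of all genes were. Cacng4 in MOL5/6 was at 10.4 CPM in control dOLCs and 4.07 CPM in ectopic vOLCs, against 610 and 598 CPM in OPCs. The OPC markers Pdgfra, Cspg4 and Ptprz1 summed to 59.0, 37.0 and 25.5 CPM in MOL5/6 of control dOLCs, control vOLCs and ectopic vOLCs. Cspg4 among them was at 9.23 CPM in MOL5/6 of control dOLCs against 597 CPM in their OPCs. It differed by -1.40 (-1.96 to -0.87) in ectopic MOL5/6 against control dOLCs. The part of OPC RNA was not tested. Slc12a2 in MOL5/6 was at 602, 548 and 315 CPM, and ectopic vOLCs differed by -0.93 (-0.99 to -0.88) from control dOLCs and by -0.80 (-0.88 to -0.71) from control vOLCs. Dlg1 was at 70.9, 67.1 and 37.4 CPM, and the same differences were -0.92 (-1.09 to -0.76) and -0.85 (-1.10 to -0.59). Against control vOLCs 0 of 18 genes were called in MOL5/6, beside 0.635% of all genes higher and 4.28% lower. The median over the tested list genes in MOL5/6 was -0.30 and -0.34, beside -0.15 and -0.09 over all genes.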

How the data were processed

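Droplet-based single-cell libraries of sorted OLCs, 1 per group, were analysed. The authors deposited raw UMI counts per gene and barcode, without normalization, with an annotation of the cells they kept and their clusters. The submitters' processing notes name Cell Ranger 2.1.1, Seurat 3 and the build mm10. Per the paper's methods, cells were kept by genes detected and mitochondrial share, normalized with sctransform and clustered by the Leiden method. The deposited cluster names were used unchanged, and a library's mice were not told apart. The 4 P0 samples were not analysed here.

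Counts of the kept cells were summed per library and cluster and scaled to 1000000 UMIs (CPM). CPM intervals are exact Poisson, shares Clopper-Pearson, and log2 ratios conditional exact binomial, all at 95%, and they cover counting error only. A count of 0 allows 3 counts. Libraries held 4846391 to 23078181 UMIs, and members under 50 UMIs in a comparison were not called or counted. Log2 ratios above 0 are higher in the first group named. No test, p-value or standard error is given, because each group is 1 library. A cohort was set aside by the authors for batch effects, and groups are confounded with library and, for ectopic vOLCs, with mice.

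Doublets were kept. Scrublet (scanpy 1.11.5, expected rate 0.06) called 1, 11 and 1 kept cells, judged not to have worked, and an alternative left out the 6% of barcodes with the highest score per library (328, 57 and 131 kept cells). Other alternatives were TMM factors (edgeR 4.0.16), median-of-ratios factors (DESeq2 1.42.0), no filter beyond 1 UMI, a UMI in at least 10% of cells, the mean of each cell's CPM, cells thinned to 1000 UMIs (0 cells left out), and each MOL5/6 subcluster. Steps were tested on simulated data.

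All 35 members are accounted for. Those named in a library comparison had at least 50 UMIs, largest change first, with those whose interval left out 0 against both controls. List genes named are the 1 or 2 with the largest change, and Slc12a2 in MOL5/6 and Dlg1 were also named after their values were seen. Members and lists were chosen with earlier results of these data known. Software was matplotlib 3.10.9, pandas 2.3.3, scipy 1.17.1 and numpy 2.4.6 under Python 3.11.15, and R 4.3.3.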

Additional observations from a re-analysis of the deposited data

How the results depend on the processing

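Of 57 counts of called members under an alternative, 44 stayed within 1.5 times the reported count and 13 moved. Without a filter beyond 1 UMI, the called members numbered 3, 6 and 5 in OPCs (ectopic vOLCs against control dOLCs, ectopic vOLCs against control vOLCs, and control vOLCs against control dOLCs) and 7, 4 and 7 in MOL5/6. With the added filter on 10% of cells, ectopic vOLCs against control dOLCs gave 0 in OPCs and 1 in MOL5/6. That MOL5/6 comparison gave 1 with TMM factors, with median-of-ratios factors and without high doublet scores, and 4 with thinned cells, while ectopic against control vOLCs gave 3 with thinned cells. Of 700 ratios of single members under an alternative, 560 stayed within the reported interval, 124 left it, and 16 turned sign where the reported interval left out 0.

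Turns of sign among ratios whose interval included 0 are not listed. Those that turned were as follows. With thinned cells, Grik4 in OPCs was 0.03 in ectopic against control vOLCs and -0.24 between the controls, and Grm3 in MOL5/6 was 0.15 against control vOLCs. Gabbr1 in OPCs over MOL5/6 was -0.34 (TMM) and -0.35 (median of ratios) in control dOLCs, and -0.07 and -0.06 in control vOLCs. Within subclusters against control dOLCs, Grik2 was 0.02 in MOL5/6b and 0.56 in MOL5/6c, and Grik5 was 0.76 in MOL5/6c. Against control vOLCs, Gria2 was 0.33 in MOL5/6d, where Grm3 was 0.39, and Grm3 was 0.02 and 0.01 in MOL5/6b and MOL5/6c, respectively. Between the controls, Grm3 was 0.02 in MOL5/6a and Gabbr1 -0.13 in MOL5/6d. The cause was not tested. Depth left 9 to 19 of the 35 members with a ratio between libraries. No library could be left out, since each group has 1. No paired analysis was possible because each group is 1 pooled library, which leaves 1 pair and no replicate.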

Other observations

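Cycling OPCs were few, with 17, 3 and 11 cells in control dOLCs, control vOLCs and ectopic vOLCs, and their receptor levels were not compared. Grik3, an OPC kainate subunit gene, was at 32.9 CPM in OPCs of control vOLCs against 16.8 CPM in control dOLCs, a log2 ratio of 0.97 (-0.04 to 1.89) whose interval included 0. In MOL2, Grm7 was at 12.2, 26.1 and 14.2 CPM, against 11.3, 12.3 and 13.7 CPM in MOL5/6, and the log2 ratio of MOL2 over MOL5/6 was 1.08 (0.35 to 1.81) in control vOLCs, 0.11 in control dOLCs and 0.05 in ectopic vOLCs. The difference between libraries was not tested.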
